A study of Mus musculus with 6 samples.

Results

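The insulin-like growth factor (IGF) system was followed in mouse corneas through 10 genes: 6 IGF-binding proteins (Igfbp2 to Igfbp7), the ligands Igf1 and Igf2, and the receptors Igf1r and Igf2r. They were taken by gene symbol from the 6 count tables, which hold 22007 symbols, and all 10 were found and passed the filter on low counts, as did 13941 genes in all. The corneas came from male C57BL/6J mice, with 3 libraries of an open-field blast injury (OFBI) group and 3 of a Naive group. OFBI mice were awake when 350 g of the explosive C-4 was detonated once at 3 m from them, and their corneas were taken 12 months later. The Naive libraries carry the same 12-month label and no blast. Neither group carries a labelled transgene or drug treatment, and each library is a pool of corneas. Pools are called biological replicates in the series, without the animals behind each, so p-values measure the spread between these pools.

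IGF1 and IGF2 are secreted peptides that signal through IGF1R, a receptor tyrosine kinase that feeds the PI3K-AKT and MAPK pathways. The IGF-binding proteins hold most extracellular IGF, limit or deliver it to IGF1R, and also act on cells and matrix without IGF. IGF2R, also known as the cation-independent mannose 6-phosphate receptor, clears IGF2 and carries lysosomal enzymes. In cornea, IGF signalling is known for its part in epithelial growth and wound closure.

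The totals of the deposited tables differed with the group. Whether they reflect the sequencing itself or only what was deposited is not given in the sources used here, and depth below means these totals. The OFBI libraries held 1173472 to 3410476 estimated counts and the Naive libraries 41971752 to 47809779, a ratio of 16.7 between the Naive and OFBI means. From the values, about 4 deposited counts per fragment were inferred, so 12 counts, or 3 fragments, was taken as the floor of detection in a library. That floor lies at 3.71 to 11.2 CPM (counts scaled to library size) in OFBI libraries and at 0.237 to 0.264 CPM in Naive libraries. It covers counting error only. The corneal epithelial keratins Krt12 and Krt5 averaged 25570 and 26260 CPM in OFBI and 9999 and 7734 CPM in Naive corneas, and all 9 listed epithelial markers had counts in every library. Several markers of the other corneal cells had few counts in the OFBI libraries, whose totals were also far lower. Other markers of the same lists did not. Aldh3a1 of the keratocyte list had 31361, 24962 and 8229 counts in OFBI replicates 1, 2 and 3. Col8a2 of the corneal endothelium list had 859, 695 and 332, and neither gene was called. The Naive mean of Aldh3a1, 6583 CPM, was nearer to that of Krt5 than to Dcn, the next of its list at 117.5 CPM. Which cells gave the Aldh3a1 counts was not tested. The keratocyte marker Kera had 0, 20 and 0 counts in OFBI replicates 1, 2 and 3, against 480, 597 and 456 in the Naive replicates. In OFBI replicate 3 the keratocyte genes Lum and Angptl7 had 4 and 0 counts and the endothelial gene Slc4a11 had 4. Dcn and Ptgds, also of the keratocyte list, were called lower. Kera, Lum, Angptl7 and Ptgds were chosen after their values were seen.

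Igfbp2, Igfbp3, Igfbp4 and Igfbp7 rose after OFBI, while Igfbp5, Igf1, Igf1r and Igf2r did not pass the test and had overlapping libraries. Igfbp6 and Igf2 were higher in every OFBI library than in any Naive library but did not pass the test. No member fell. The 4 of 10 members called higher stand beside 8.41% of all tested genes called higher and 10.4% called lower, or 18.8% in either direction. Calls rest on edgeR's quasi-likelihood test at an adjusted p below 0.05 over all genes. The groups did not overlap for 6 members, with OFBI above Naive each time, where 16.4% of all tested genes did so, 29.9% lay with OFBI below and 46.4% did not overlap in either direction. The median log2 fold change was 1.12 over the 10 members, 1.68 over the 6 binding proteins and -0.20 over all genes tested. In pooled tissue, more cells of a type and more RNA per cell cannot be told apart.

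**Figure D1:**
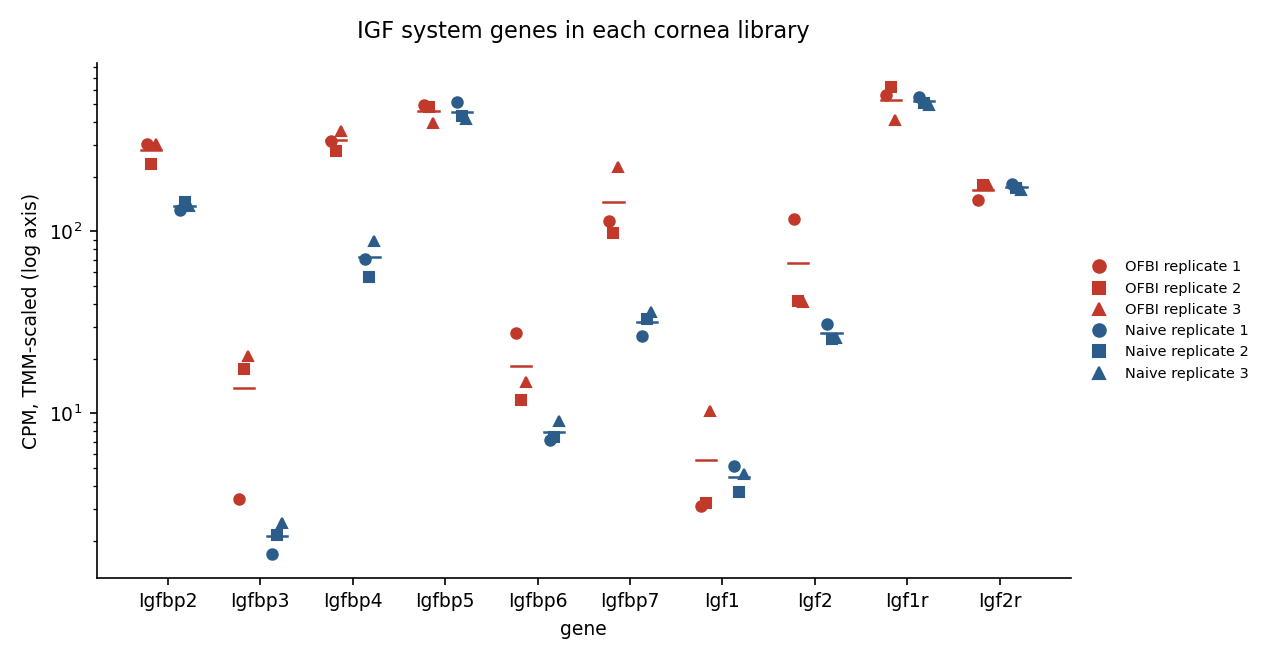
TMM-scaled CPM (log axis) of the 10 IGF genes in each library, OFBI left and Naive right within a gene, with replicates as symbols and group means as lines. Igfbp4 and Igfbp7 show the wide gap between groups, while Igfbp5, Igf1r and Igf2r share a range.

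Igfbp4 gave the clearest difference. IGFBP4 is a secreted inhibitor of IGF action that the protease PAPPA cleaves to release IGF. Igfbp4 (chromosome 11, 99041244 to 99054392, plus strand, GRCm38) had 315, 278 and 358 CPM in OFBI replicates 1, 2 and 3, against 70.6, 56.1 and 88.9 CPM in Naive replicates 1, 2 and 3. The lowest OFBI library lay well above the highest Naive library. Its means were 317 ± 40.4 CPM in OFBI and 71.9 ± 16.4 CPM in Naive corneas (SD, n = 3 each), a log2 fold change of 2.14 (SE 0.21 and adjusted p = 0.0064). The values rest on 383 to 1018 estimated counts per OFBI library and 2603 to 4037 per Naive library.

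Igfbp7 rose by a similar factor. Its product binds IGF weakly, is secreted, and is known from vascular basement membranes and from senescent cells. Igfbp7 (chromosome 5, 77349240 to 77408041, minus strand) had 114, 97.6 and 224 CPM in the OFBI replicates, against 26.6, 32.9 and 36.0 CPM in the Naive replicates. The groups did not overlap, and OFBI replicate 3 was well above the other OFBI libraries. Means were 145 ± 69.0 CPM in OFBI and 31.8 ± 4.79 CPM in Naive corneas (SD, n = 3 each), with a log2 fold change of 2.17 (SE 0.34 and adjusted p = 0.013). Without OFBI replicate 3 the log2 fold change was 1.72 (edgeR adjusted p = 0.00392). Exons of Igfbp7 overlap on the opposite strand with those of Polr2b, a subunit of RNA polymerase II, and the strand setting of the counting is not given in the sources used here, so reads of the overlap cannot be assigned with certainty. Polr2b went the other way, with 32.5 ± 11.4 CPM in OFBI and 72.2 ± 8.14 CPM in Naive corneas (SD, n = 3 each, edgeR adjusted p = 0.0327).

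Igfbp2, whose product binds IGF2 with preference and attaches to integrins, rose by a factor of 2.03. Igfbp2 (chromosome 1, 72824503 to 72852474, plus strand) had 304, 234 and 303 CPM in the OFBI replicates, against 131, 145 and 138 CPM in the Naive replicates. Every OFBI library exceeded every Naive library. Means were 280 ± 40.3 CPM in OFBI and 138 ± 7.09 CPM in Naive corneas (SD, n = 3 each), a log2 fold change of 1.02 (SE 0.15 and adjusted p = 0.0115).

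Igfbp3 had the largest fold and the fewest counts of the genes that rose. IGFBP3 is the main IGF carrier of serum and a growth-inhibiting, p53-regulated protein in many cells. Igfbp3 (chromosome 11, 7206086 to 7213923, minus strand) had 11, 55 and 22 estimated counts in OFBI replicates 1, 2 and 3, against 85, 99 and 114 in the Naive replicates. These are 3.40, 17.6 and 20.6 CPM in the OFBI and 1.68, 2.13 and 2.51 CPM in the Naive libraries. OFBI replicate 1 was under the floor of 12 counts and lay closer to the Naive libraries than to the other OFBI libraries. The log2 fold change was 2.69 (SE 0.74 and adjusted p = 0.0459), and 11 of 19 alternative settings in which the gene was tested lost the call, among them the removal of OFBI replicate 2 (2.28, edgeR adjusted p = 0.0843) and of each Naive library.

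Igfbp6, whose product is the binding protein with the strongest preference for IGF2, lay between. Igfbp6 (chromosome 15, 102144362 to 102149511, plus strand) had 27.8, 11.9 and 15.0 CPM in the OFBI replicates, against 7.17, 7.46 and 9.06 CPM in the Naive replicates. The OFBI libraries were all higher, with only 16 estimated counts in OFBI replicate 3. The log2 fold change of 1.22 (SE 0.44) had an edgeR adjusted p of 0.0988. DESeq2 called it (adjusted p = 0.0199), as did edgeR without OFBI replicate 2 or 3 (adjusted p = 0.0479 and 0.0485). Without OFBI replicate 1 the log2 fold change was 0.71 (edgeR adjusted p = 0.196).

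Igfbp5, a matrix-bound IGF carrier that is known for roles in fibrosis, was the most abundant binding protein by CPM in both groups. Igfbp5 (chromosome 1, 72857932 to 72874884, minus strand) had 497, 484 and 396 CPM in the OFBI replicates, against 516, 433 and 413 CPM in the Naive replicates. The libraries of the groups were interleaved. The log2 fold change was 0.02 with a 95% interval of -0.34 to 0.37 (edgeR adjusted p = 0.95), an interval that holds neither a 2-fold rise nor a 2-fold fall. It does not cover the choice of processing. With library size as the only scaling the estimate was -0.18. This scaling put the median of all genes at -0.40, and Igfbp5 stood 0.21 above the median of all genes under TMM and 0.21 above it under library size.

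**Figure D2:**
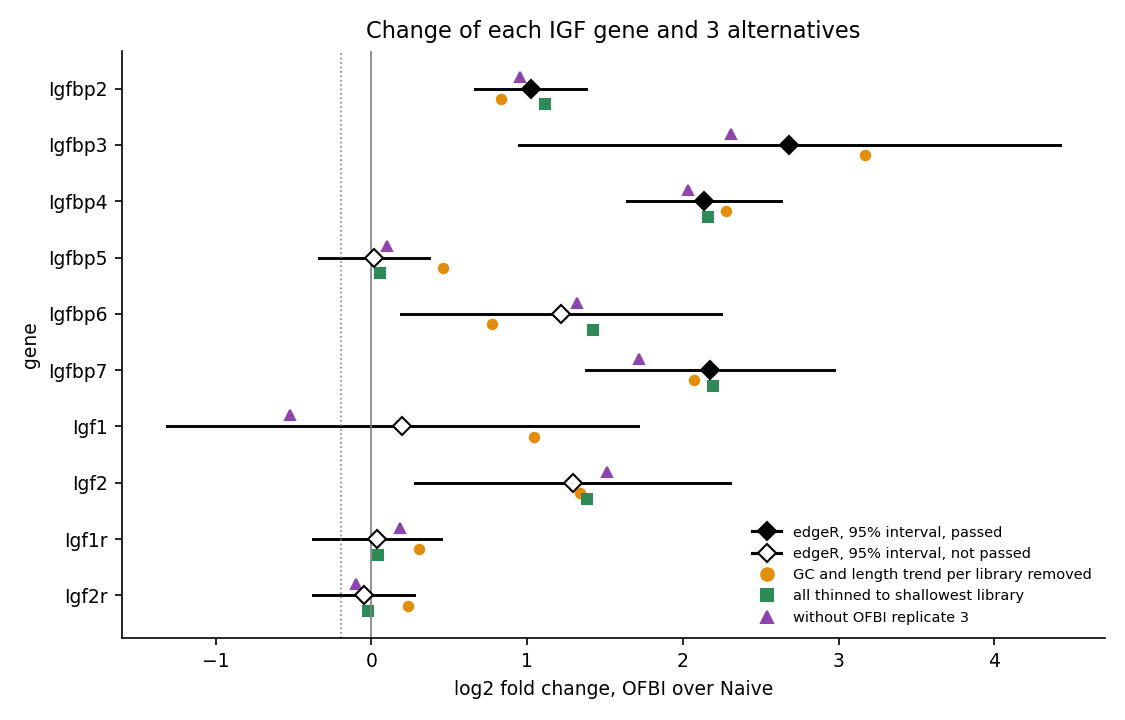
Log2 fold change of OFBI over Naive for each IGF gene (diamonds, bars for 95% intervals, filled where the adjusted p passed 0.05) with 3 alternatives beside it. The solid line marks 0 and the dotted line -0.20, the median of all genes tested; Igfbp4 stays near 2 under each alternative shown and Igf1 moves across 0 without OFBI replicate 3.

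The sequence upstream of the genes called higher is given, with that of Igfbp5 for comparison. Each run is the 100 bases before the first listed RefSeq start (GRCm38.p6), 5′ to 3′ on the gene's strand. Capitals mark the motifs TATAAA and GGGCGG on either strand, searched as exact matches. They lie at chr11:99041144-99041243 for Igfbp4, chr5:77408046-77408145 for Igfbp7, chr1:72824380-72824479 for Igfbp2, chr11:7213924-7214023 for Igfbp3 and chr1:72874866-72874965 for Igfbp5.
Igfbp4: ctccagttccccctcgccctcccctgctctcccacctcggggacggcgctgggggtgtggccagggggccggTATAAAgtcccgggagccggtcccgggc
Igfbp7: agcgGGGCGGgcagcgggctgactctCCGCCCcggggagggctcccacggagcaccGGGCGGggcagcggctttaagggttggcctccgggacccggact
Igfbp2: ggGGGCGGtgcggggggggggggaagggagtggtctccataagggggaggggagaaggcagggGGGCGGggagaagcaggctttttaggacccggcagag
Igfbp3: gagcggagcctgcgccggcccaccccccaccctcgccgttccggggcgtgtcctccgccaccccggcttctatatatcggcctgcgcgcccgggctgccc
Igfbp5: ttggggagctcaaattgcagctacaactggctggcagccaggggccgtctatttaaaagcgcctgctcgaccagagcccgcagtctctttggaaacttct

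Of these 5 windows only that of Igfbp4 held TATAAA, which 5.95% of 27025 promoter windows of the same length hold. GGGCGG, the core of the GC box that SP-family factors recognise, occurred 3 times before Igfbp7 and 2 times before Igfbp2, and in 25.2% of all windows. Among the receptors it occurred 2 times before Igf1r and 3 times before Igf2r, neither of which was called. The windows of Igfbp4, Igfbp7, Igfbp2, Igfbp3 and Igfbp5 held 8, 11, 4, 13 and 4 CpG dinucleotides, against a median of 3 over all windows. A match of letters is a description of these windows and not a binding site.

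Within a library, the make-up of the binding protein counts differed between the groups, and this measure does not depend on scaling between libraries. It was not adjusted for GC content, in which the 6 genes differ and with which the fold change of all genes rose, as given below. Igfbp5 took 39.4%, 43.1% and 30.0% of the summed counts of the 6 genes in OFBI replicates 1, 2 and 3, against 68.6%, 64.0% and 60.1% in the Naive replicates. The 95% Wilson interval, at 4 counts per fragment, was widest in OFBI replicate 3, at 25.5% to 35.0%. It covers counting error within that library only and says nothing of the spread between pools. Igfbp4 took 24.97%, 24.7% and 27.2% in the OFBI replicates, against 9.38%, 8.30% and 12.9% in the Naive replicates, again without overlap. Igfbp7 took 9.03%, 8.70% and 17.0% in the OFBI replicates, against 3.54%, 4.86% and 5.24% in the Naive replicates. The mean differences, OFBI minus Naive, were -26.7 percentage points for Igfbp5, 15.4 for Igfbp4 and 7.04 for Igfbp7. With counts taken per kilobase of exon they were -19.8, 8.25 and 13.3 points, so that Igfbp7 and not Igfbp4 had the larger difference. For each of these 3 genes the exact two-sided permutation test gave p = 0.1 (adjusted over the 6 genes, 0.2), the smallest that 3 against 3 libraries allow, so no share can pass 0.05 in this design. The share of Igfbp2, 22.7 ± 1.68% in OFBI and 19.6 ± 2.07% in Naive (SD, n = 3 each), overlapped between groups (exact permutation p = 0.2), and its difference changed sign to -2.64 points per kilobase. The shares of Igfbp3 and Igfbp6 were at most 2.21% in any library (exact permutation p = 0.3 and 0.6).

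**Figure D3:**
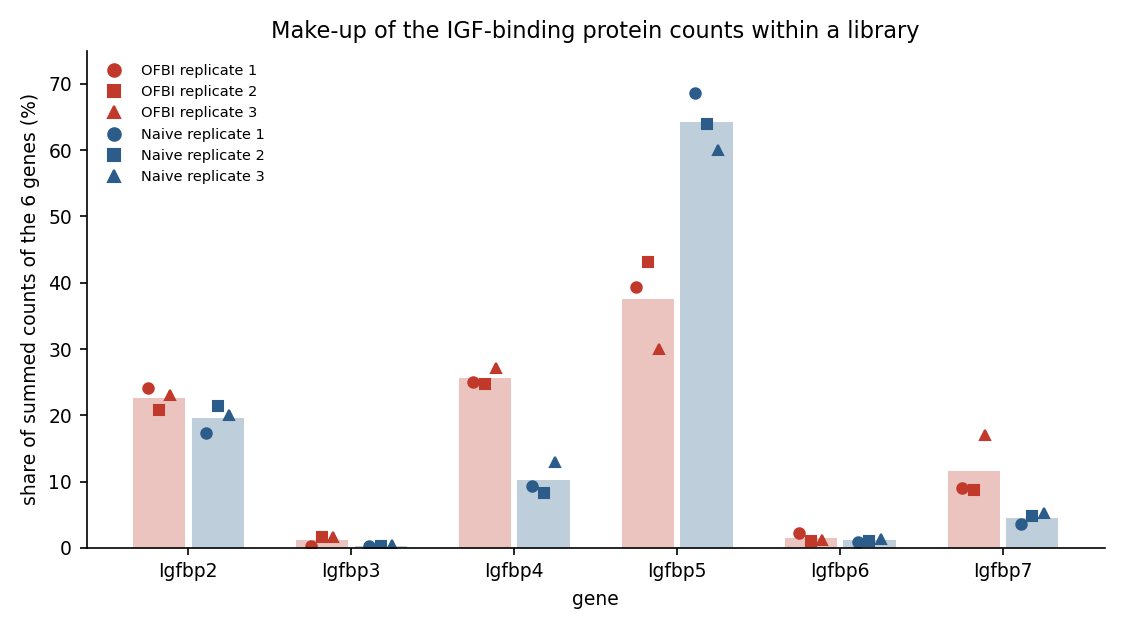
Share (%) of each gene in the summed estimated counts of the 6 IGF-binding proteins, with bars for group means and symbols for the libraries, OFBI left and Naive right. Igfbp5 holds 30.0% to 43.1% in OFBI against 60.1% to 68.6% in Naive libraries, and Igfbp4 and Igfbp7 hold more in OFBI libraries.

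The same could be read from ratios of counts. Igfbp4 stood at 0.633, 0.573 and 0.905 times Igfbp5 in the OFBI replicates, against 0.137, 0.13 and 0.215 times in the Naive replicates. Igf1r stood at 1.13, 1.29 and 1.03 times Igfbp5 in the OFBI replicates, against 1.06, 1.18 and 1.2 times in the Naive replicates. Igfbp5 and Igf1r thus kept an overlapping ratio in the groups while Igfbp4 did not.

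Both ligands had a lower mean CPM than Igfbp2, Igfbp4, Igfbp5 and Igfbp7 in each group. For Igf2 against Igfbp7 in Naive corneas the gap was narrow (27.6 and 31.8 CPM). Igf2 had a higher mean CPM than Igfbp3 and Igfbp6 in both groups. With CPM taken per kilobase of exon, the mean of Igf2 was below that of Igfbp6 (11.6 and 16.4 in OFBI, 4.81 and 7.1 in Naive corneas). Igf1 (chromosome 10, 87858265 to 87937042, plus strand), the growth hormone-dependent ligand made in liver and locally, had 10, 10 and 11 estimated counts in OFBI replicates 1, 2 and 3, against 259, 171 and 211 in the Naive replicates. All 3 OFBI libraries were under the floor of 12 counts for a single library. The CPM values were 3.09, 3.20 and 10.3 in OFBI and 5.12, 3.69 and 4.65 in Naive libraries, and the log2 fold change of 0.20 (edgeR adjusted p = 0.86) had a 95% interval of -1.31 to 1.71. That interval holds changes of 2-fold in either direction. It does not cover the choice of processing, and with each OFBI count under the single-library floor the size of any change is poorly bounded. With the GC and length trend removed per library the estimate was 1.045 (SE 0.822). The estimate was -0.52 without OFBI replicate 3, whose Igf1 count did not follow its lower depth.

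Igf2 (chromosome 7, 142650766 to 142666816, minus strand), the imprinted fetal ligand, had 118, 41.3 and 41.1 CPM in the OFBI replicates, against 31.0, 25.7 and 25.9 CPM in the Naive replicates. All OFBI libraries were higher, and OFBI replicate 1 stood apart from the other 2. The log2 fold change of 1.29 (SE 0.43) had an edgeR adjusted p of 0.0789. Without OFBI replicate 1 it was 0.55 (edgeR adjusted p = 0.135), and without OFBI replicate 3 it was 1.51 (edgeR adjusted p = 0.0375). Exons of Igf2 overlap with those of Gm49394 on the same strand and of Igf2os on the other, so some of its reads may belong to these. Igf2 exceeded Igf1 in counts by 38, 12.9 and 4 times in OFBI replicates 1, 2 and 3, against 6.07, 6.97 and 5.58 times in the Naive replicates, but the OFBI ratios rest on Igf1 counts under the floor.

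Neither receptor passed the test. Igf1r (chromosome 7, 67952827 to 68233668, plus strand) had 559, 624 and 407 CPM in the OFBI replicates, against 547, 510 and 494 CPM in the Naive replicates. OFBI replicate 3 was the lowest of the 6 libraries and OFBI replicate 2 the highest. The log2 fold change of 0.04 (edgeR adjusted p = 0.904) had a 95% interval of -0.37 to 0.45. Igf2r (chromosome 17, 12682406 to 12769664, minus strand) had 148, 179 and 180 CPM in the OFBI replicates, against 182, 172 and 170 CPM in the Naive replicates. Its log2 fold change of -0.05 (edgeR adjusted p = 0.841) had a 95% interval of -0.37 to 0.28, and the groups overlapped. With library size as the only scaling, the estimates were -0.16 for Igf1r and -0.25 for Igf2r, where the median of all genes was -0.40.

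Levels can be set side by side once divided by exon length (CPM per kilobase, kb). In OFBI corneas the order was Igfbp2 with 152 ± 21.8, Igfbp7 with 120 ± 57.1, Igfbp5 with 76.4 ± 9.19 and Igfbp4 with 71.7 ± 9.14 CPM per kb (SD, n = 3). Each of these 4 overlapped with its neighbour in the order. In Naive corneas Igfbp5 with 75.6 ± 9.09 and Igfbp2 with 74.6 ± 3.84 CPM per kb led and overlapped, followed by Igf1r with 30.8 ± 1.61 and Igfbp7 with 26.3 ± 3.96 CPM per kb, which overlapped too (SD, n = 3). Igfbp4 was thus the fourth gene in OFBI and, with 16.3 ± 3.72 CPM per kb, the sixth in Naive corneas. Igf1r held 31.6 ± 6.64 CPM per kb in OFBI corneas and Igf2r 18.2 ± 1.94 in OFBI and 18.8 ± 0.684 in Naive corneas. Igfbp6, Igf2, Igfbp3 and Igf1 closed the order in both groups, with Igf1 lowest at 0.558 ± 0.416 in OFBI and 0.453 ± 0.0736 CPM per kb in Naive corneas. Among 13813 tested genes with a length, Igfbp4 was at or above 95.6% in OFBI and 78.9% in Naive corneas, and Igfbp5 at or above 95.9% in OFBI and 96.6% in Naive corneas.

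The log2 fold change of all genes rose with GC content, and the members differ in GC content. Of tested genes with transcripts of 55% to 60% GC, 13.4% were called higher, with a median log2 fold change of 0.18; of those of 45% to 50% GC, 5.10% were, with a median of -0.37. Igfbp2, Igfbp4 and Igfbp7 have 59.2%, 55.9% and 59.0% GC, Igfbp3 has 53.6% and Igfbp6 has 60.7%, whereas Igfbp5, Igf1r and Igf2r have 50.3%, 49.1% and 51.5%. At 60% GC or more, the range of Igfbp6, 31.2% of tested genes were called higher. Their median log2 fold change was 0.764 and their upper quartile 1.348, and Igfbp6, at 1.22, lay below that quartile. After removal of a trend with GC and length, fitted per library, the log2 fold changes were 2.28 for Igfbp4, 2.07 for Igfbp7, 0.83 for Igfbp2 and 3.17 for Igfbp3, with edgeR adjusted p = 0.0503, 0.0503, 0.0638 and 0.0657. The other members had 0.46 (Igfbp5), 0.77 (Igfbp6), 1.04 (Igf1), 1.34 (Igf2), 0.31 (Igf1r) and 0.23 (Igf2r) in that fit, where the median of all genes was 0.16. No member passed in it, and 14 genes in all were called higher and 5 lower. With 1 trend per group removed, an alternative chosen after the data were seen, the 4 passed with 2.22, 2.00, 0.81 and 3.01 (edgeR adjusted p = 0.00292, 0.0113, 0.0159 and 0.0345). Igfbp5 was then 0.45 (edgeR adjusted p = 0.081) and Igf1 0.86 (edgeR adjusted p = 0.418), with a median of 0.19 over all genes.

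**Figure D4:**
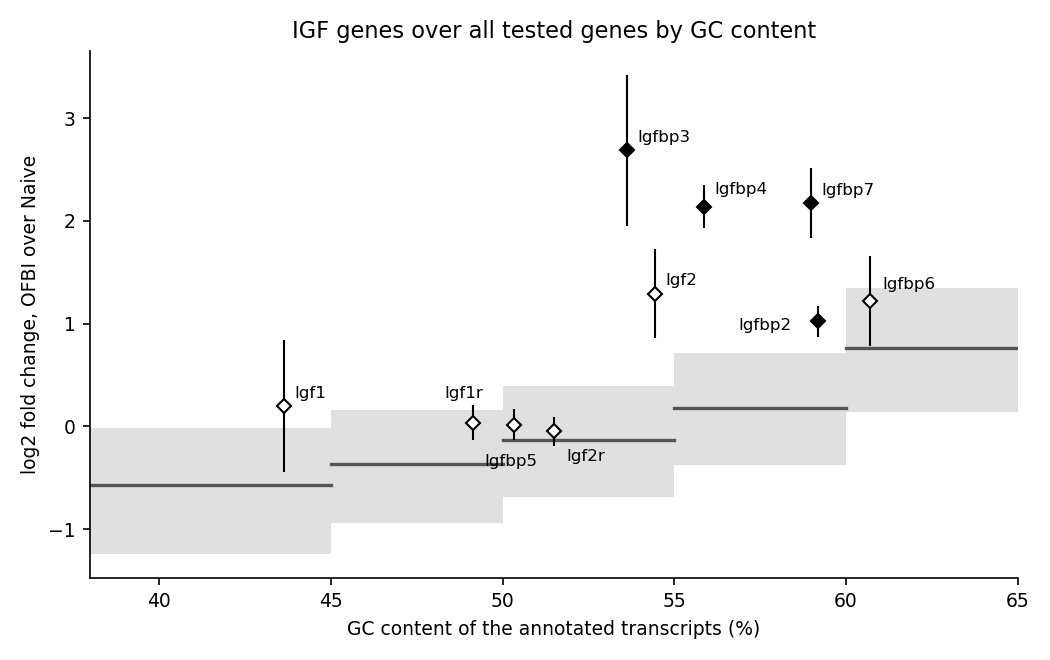
Log2 fold change of OFBI over Naive (bars for SE, filled where the adjusted p passed 0.05) against the GC content (%) of the annotated transcripts. Dark lines are medians and grey bands the middle 50% of all tested genes in 5 GC ranges, the outermost drawn to the edge of the plot; Igfbp3, Igfbp4, Igfbp7, Igfbp2, Igf2 and Igf1 lie above the band at their GC content.

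Leaving out 1 Naive library changed the calls by edgeR. Without Naive replicate 1, 2 or 3, it called 1, 0 and 1 of the 10 members, Igfbp4 being the 1, while 5, 4 and 4 had an unadjusted p below 0.05. Over all genes these fits called 97, 0 and 96 higher and 9, 0 and 8 lower, and an unadjusted p below 0.05 was reached by 2611, 2441 and 2615. DESeq2 called 4 members in each of these fits, the same 4 as edgeR on all libraries, and limma-voom called 4 in each, Igfbp2, Igfbp4, Igfbp7 and Igf2. Over the 6 fits without 1 library, the log2 fold change ranged from 2.02 to 2.36 for Igfbp4, 0.92 to 1.09 for Igfbp2, 1.72 to 2.34 for Igfbp7 and 2.28 to 3.13 for Igfbp3. It ranged more widely for Igf2, from 0.55 to 1.53, for Igfbp6, from 0.71 to 1.44, and for Igf1, from -0.52 to 0.39.

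Markers of other cell types also moved with the groups. Of 16 hepatocyte markers 8 were tested and 7 called higher, where 8.41% of all tested genes were. Apoa1, Apob, Fgg, Mat1a and Tat among them had Naive means of 0.0875 to 0.336 CPM. These passed the filter on low counts through their OFBI values, so their calls were close to fixed in advance. The summed level of the 16 was 183, 201 and 1178 CPM in OFBI replicates 1, 2 and 3, against 31.0, 37.2 and 43.5 CPM in the Naive replicates. Over the libraries, Igfbp3, Igfbp4, Igfbp7 and Igf1 were highest in OFBI replicate 3 and the other members were not. Igfbp2 was nearly level in OFBI replicates 1 and 3, at 303.9 and 303 CPM. Liver is known to make Igf1, Igfbp1, Igfbp2 and Igfbp4. Igfbp1, the liver-made binding protein, had 0, 0 and 24 estimated counts in the OFBI replicates, against 0, 0 and 9 in the Naive replicates. Igfals, the liver-made subunit of the serum IGF complex, was at 0 in all OFBI libraries, against 8, 12 and 4 counts in the Naive replicates, a Naive mean of 0.168 CPM that lies under the OFBI group floor of 1.62 CPM and would not be detectable there. The log2 fold changes left after OFBI replicate 3 was removed were 2.03 for Igfbp4, 0.95 for Igfbp2, 1.72 for Igfbp7 and 2.31 for Igfbp3, and all 4 passed. The hepatocyte sums of OFBI replicates 1 and 2 also lay above the Naive sums, so that fit does not take the hepatocyte difference away. The part of liver transcripts in these levels was not tested.

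Of the 10 lymphocyte markers 6 of 7 tested were called higher, with sums of 70.5, 31.1 and 168 CPM in the OFBI replicates, against 4.84, 6.99 and 6.52 CPM in the Naive replicates. Among macrophage markers, a cell type known to make Igf1, 3 of 9 were higher, with sums of 112 to 156 CPM in OFBI and 92.3 to 93.6 CPM in Naive libraries. The 6 others were not called. Among them Lyz2 overlapped between the groups, and Cd68 was lower in every OFBI library than in any Naive library. Of 9 vascular endothelium markers none was higher and 1 was lower, with sums of 55.2 to 80.4 CPM in OFBI and 45.9 to 53.8 CPM in Naive libraries. Vascular mural markers gave 2 higher of 6, keratocyte markers 0 higher and 2 lower of 8, and corneal epithelium markers 4 higher and 2 lower of 9. Corneal endothelium, pigment and Schwann cell markers gave 0 higher and 2 lower of 7, 6 and 7. Striated muscle markers gave 3 higher and 1 lower of 10, and lens markers 2 higher of 6. These numbers stand beside 8.41% of all tested genes called higher and 10.4% called lower. Of the lymphocyte markers, Cd3d, Cd3g and Zap70 passed the filter on low counts only with their OFBI values. The part of these cells in the levels of the IGF genes was not tested.

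Most genes listed around the IGF receptors did not pass. The lists hold regulators of the binding proteins, receptor relatives and adaptors, the PI3K-AKT branch, the mannose 6-phosphate pathway and Igf2 mRNA-binding genes. Of 45 listed genes 44 were matched and 38 tested, of which 5 rose and 5 were called lower, close to the 8.41% higher and 10.4% lower of all tested genes. Their median log2 fold change was 0.13, against -0.20 over all genes. Among 18 genes of the PI3K-AKT branch 3 rose and 1 fell, beside those 8.41% and 10.4% of all genes. Rptor, the scaffold of mTOR complex 1, had 127, 144 and 210 CPM in the OFBI replicates, against 74.8, 74.7 and 80.3 CPM in the Naive replicates (log2 fold change 1.06, SE 0.21, edgeR adjusted p = 0.0219). The groups did not overlap. Akt2, a kinase activated by insulin and IGF1, had 205 ± 35.2 CPM in OFBI and 93.7 ± 38.8 CPM in Naive corneas (SD, n = 3 each, edgeR adjusted p = 0.0423). Naive replicate 2, with 138 CPM, lay between the other Naive libraries and the lowest OFBI library at 174 CPM. Foxo3, a transcription factor that AKT keeps out of the nucleus, rose to 497 ± 79.2 CPM in OFBI, against 336 ± 14.3 CPM in Naive corneas (SD, n = 3 each, edgeR adjusted p = 0.0422). Pdpk1, the kinase that activates AKT at the membrane, fell to 91.5 ± 25.9 CPM in OFBI, against 185 ± 5.61 CPM in Naive corneas (SD, n = 3 each, edgeR adjusted p = 0.026).

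Of 10 tested receptor relatives and adaptors, Gab1 and Grb2 rose, with log2 fold changes of 0.68 (SE 0.17) and 0.74 (SE 0.19). Both are docking or adaptor proteins that link receptor tyrosine kinases to downstream signals. Insr, the insulin receptor and partner of IGF1R in hybrid receptors, had 96.5 ± 26.0 CPM in OFBI and 135 ± 4.78 CPM in Naive corneas (SD, n = 3 each, edgeR adjusted p = 0.173). Of the other 4 genes called lower, Stc1, Stc2, Grb14 and Igf2bp1 were at 0 in every OFBI library and had 0.601 to 1.21 CPM in Naive corneas, under the OFBI group floor of 1.62 CPM, so their difference was not detectable at this depth. Stanniocalcins, the products of Stc1 and Stc2, inhibit the IGFBP4 protease PAPPA. Pappa itself had 0.515 ± 0.892 CPM in OFBI and 0.521 ± 0.16 CPM in Naive corneas (SD, n = 3 each), both under that floor. Htra1, a protease that cleaves IGFBP5, had 43.6 ± 8.49 CPM in OFBI and 26.0 ± 3.31 CPM in Naive corneas (SD, n = 3 each, edgeR adjusted p = 0.0723). None of 4 genes of the mannose 6-phosphate pathway passed, the lowest adjusted p being 0.104 for Nagpa by edgeR.

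**Figure D5:**
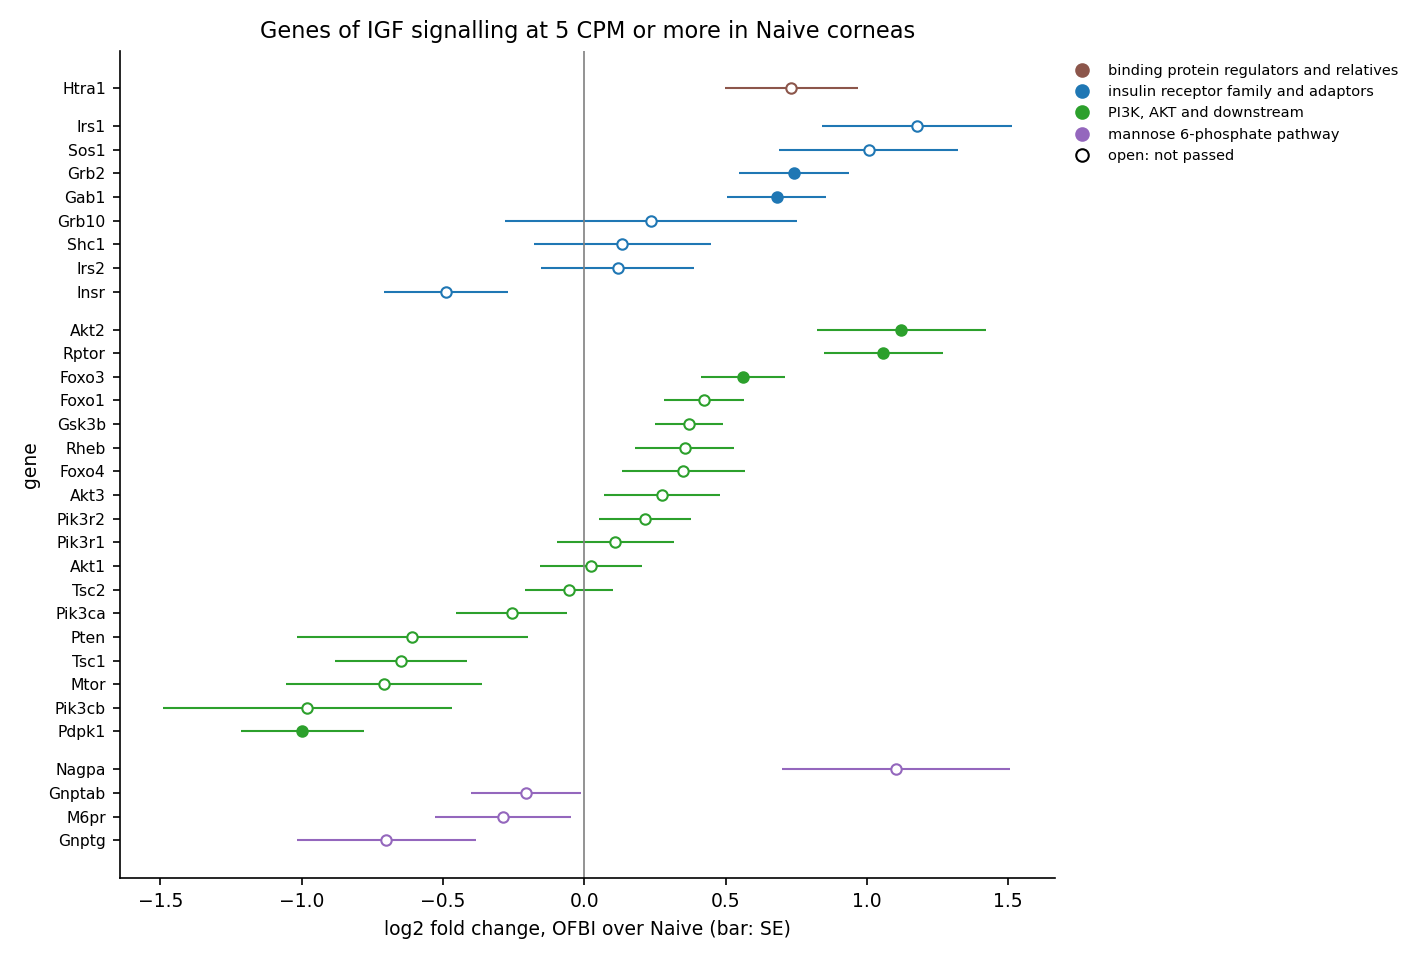
Log2 fold change of OFBI over Naive (bars for SE) of the tested pathway genes with at least 5 CPM in Naive corneas, coloured by list and filled where the edgeR adjusted p was below 0.05. Akt2, Rptor, Foxo3, Grb2 and Gab1 lie to the right of 0 and Pdpk1 to the left.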

How the data were processed

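Per the submitters' processing notes, FastQC, HISAT2, StringTie, DESeq2 and GRCm38 were used, with no version, role or order. The authors deposited estimated counts per gene as whole numbers, 1 table per library, not scaled for depth. The labels' protocols name a stranded kit. Multiples of 4 made up 39.4% to 50.5% of values from 1 to 40, from which 4 counts per fragment is inferred. For 31 symbols listed on 64 rows the counts were added up, and 26 rows named as dates were kept apart.

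All genes were fitted with edgeR 4.0.16 in R 4.3.3 (filterByExpr, TMM, quasi-likelihood test on group, Benjamini-Hochberg, two-sided), on the deposited counts. CPM values use TMM-scaled library sizes. The SE is the log2 fold change over the square root of F, and 95% intervals use 7.11 degrees of freedom. Exon lengths, GC and gene coordinates come from GENCODE mouse release M21 (GRCm38), which may not be the authors' annotation. Alternatives used DESeq2 1.42.0, limma-voom in limma 3.58.1, other scalings, filters, thinning, counts divided by 4, a GC and length trend, a replicate block, a threshold of 0.01 and leaving out each library. The procedure was tested on simulated data.

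The members, lists and tests were chosen with earlier results of these data known. The rule for names took all members, up to 4 called genes per pathway list by smallest p (or the 1 smallest where none was called) and the 2 most abundant tested markers per list, given here where a result bears on them. Insr, Pappa, Htra1, Igfbp1, Igfals, Polr2b, Kera, Lum, Angptl7 and Ptgds were added after their values were seen. All 6 libraries carry 1 batch number, so no batch comparison was possible. No pair of libraries agreed within sampling noise (mean chi-square per gene of 16.0 or more).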

Additional observations from a re-analysis of the deposited data

How the results depend on the processing

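The 4 genes called higher kept their direction in all alternatives in which they were tested, with log2 fold changes of 1.93 to 2.36 for Igfbp4, 1.72 to 2.34 for Igfbp7, 0.81 to 1.14 for Igfbp2 and 2.28 to 3.17 for Igfbp3. The call was lost in 2 of 20 alternatives for Igfbp4, 5 of 20 for Igfbp7, 5 of 20 for Igfbp2 and 11 of 19 for Igfbp3. Members called higher numbered 6 by DESeq2 or with counts divided by 4, both of which add Igfbp6 and Igf2, 0 with a GC and length trend removed per library and 1 at a threshold of 0.01, and 0 to 6 without 1 library; none was lower under any alternative. The depth of the OFBI libraries limits Igf1, Igfbp3 and Igfbp6 most. With all libraries thinned to the shallowest, Igfbp3 and Igf1 were no longer tested.

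Several estimates near 0 changed sign without passing a test. Igfbp5 was -0.18 with library size only, -0.001 with no low count filter, and -0.073, -0.063 and -0.013 without OFBI replicate 1, OFBI replicate 2 or Naive replicate 3, and 0.461 and 0.451 with the trend with GC and length removed per library or per group (-0.073 to 0.151 without 1 library). Igf1 was -0.009 with library size only, -0.20 with counts divided by 4 and -0.52 without OFBI replicate 3, and moved up to 1.045 and 0.865 with the GC and length trend removed per library or per group (-0.52 to 0.392 without 1 library). Igf1r was -0.16 with library size only, and -0.028 and -0.135 without OFBI replicate 1 or 2 (-0.135 to 0.185 without 1 library). Igf2r was 0.013 with the Naive libraries thinned, 0.233 and 0.195 with the GC and length trend removed per library or per group, and 0.006 and 0.015 without OFBI replicate 1 or Naive replicate 1 (-0.143 to 0.015 without 1 library). The share difference of Igfbp2 was -2.64 points per kilobase, and that of Igfbp6 -0.029 without OFBI replicate 1. Without 1 library the share differences ranged from 1.90 to 3.95 points for Igfbp2, 0.615 to 1.26 for Igfbp3, 14.5 to 16.8 for Igfbp4, -29.5 to -22.9 for Igfbp5, -0.029 to 0.548 for Igfbp6 and 4.32 to 8.49 for Igfbp7.

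Same-numbered libraries did not deviate together (correlations of -0.013, -0.024 and 0.008). Counting noise at the OFBI depth could hide a shared deviation, so this check cannot exclude a pairing by replicate number. With a replicate block 540 genes were higher and 253 lower, 3 members were higher (Igfbp6 had an edgeR adjusted p of 0.336), and 2 pathway genes were higher and 1 lower. Over all genes, 1173 were higher and 1446 lower. DESeq2 called 1854 higher, the threshold of 0.01 left 191 higher and 31 lower, no low count filter left 910 lower, and thinning the Naive or all libraries left 581 and 456 lower. With the GC and length trend removed per library 14 were higher and 5 lower, and per group 1889 higher and 744 lower. Without 1 library 0 to 1611 were higher and 0 to 2065 lower. The cause of these shifts was not tested.

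Pathway genes called higher, 5 at first, numbered 1 with library size only or no low count filter, 11 by DESeq2 or with the trend removed per group, 3 by limma-voom, 8 with counts divided by 4, 0 with the trend removed per library or at 0.01, and 0 to 7 without 1 library. Those called lower, 5 at first, numbered 2 by DESeq2 or limma-voom, 1 with no low count filter, a filter of 1 CPM, either thinning, counts divided by 4 or the trend removed per group, 0 with the trend removed per library or at 0.01, and 0 to 4 without 1 library.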
